A study of Mus musculus with 12 samples.

Results

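The 9 genes described here, Kit, Kitl, Sohlh1, Sohlh2, Dmrt1, Dmrtb1, Stra8, Meioc and Ythdc2, cover the steps from spermatogonial differentiation to entry into meiosis. They were chosen by name from what is known of the pathway, and each was read from the single transcript cluster that carries its symbol in the platform annotation, as 9 of 22180 genes measured. Whole testes of C57BL/6N mice aged 2 weeks were measured on Affymetrix whole-transcript arrays, with 1 array per testis and 12 arrays in all. The series concerns SoxB1 transcription factors in the developing testis, and both mutant lines were made with CRISPR/Cas9. The 3 Sox3-KO testes (KO) carry a knockout of Sox3, an X-linked SoxB1 gene known from spermatogonia. The 3 Sox3-Sox2KI testes (KI) come from a line whose name denotes Sox2, a close relative, placed at the Sox3 locus. The controls were WT testes without either allele, 3 from KI litters (named WT 1 to WT 3) and 3 from KO litters (named WT 4 to WT 6). Replicates are described as biological in the labels, and the mutant testes as independent in the design text. The labels name no restriction of either mutation to a cell type and do not say whether the mice of a group were from 1 litter or several.

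Spermatogonia that commit to differentiation switch on the receptor tyrosine kinase KIT, whose ligand KITL is made by the neighbouring Sertoli cells. The basic helix-loop-helix partners SOHLH1 and SOHLH2 act at the same step, and the DM-domain factors DMRT1 and DMRTB1 (also called DMRT6) set when the mitotic spermatogonial programme ends. Retinoic acid then induces STRA8, a transcription factor of meiotic entry, and the cytoplasmic pair MEIOC and YTHDC2 binds RNA and is needed for germ cells to leave the mitotic programme and go through meiotic prophase. At the age sampled the first wave of spermatogenesis has brought germ cells into meiosis, so the whole testis holds spermatogonia and spermatocytes together with Sertoli, Leydig and other somatic cells.

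Values are log2 levels that the submitters normalised with RMA, which sets the arrays to a common distribution, so every difference is relative to the rest of the array. In bulk tissue, fewer cells of a type and less RNA per cell cannot be told apart. A level of 5.33, the 95th percentile of 1105 olfactory receptor genes, served as a background limit, and all 9 genes lay above it on every array. Array medians ran from 5.74 to 5.82, and no count depth exists for arrays, whose number limits the precision. Sox3, the targeted gene, measured 6.57, 6.60 and 6.65 in the KO testes and 7.26, 6.75 and 6.95 in the KI testes, against 7.21 to 7.36 in the 6 WT testes. Sox3 fell in KO by 0.68 on the log2 scale (SE 0.09, limma adjusted p = 0.0161), and 1 KI testis, KI 1, lay within the WT range. Sox2 lay below the background limit on all arrays, at 4.02 to 4.22 in KO, 4.16 to 4.51 in KI and 3.81 to 4.22 in WT. Where the probes lie within Sox3 and Sox2 is not known here, so these levels only partly check the alleles. Markers of the labelled tissue were present, since none of 13 Sertoli cell markers and none of 7 pan-germ cell markers averaged below the limit in WT, while all 4 measured epididymis markers did.

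In KO testes against all 6 WT testes, 3 of the 9 genes passed the test, against 4.86% of all genes. Meioc and Ythdc2 fell and Kitl rose. For single directions the background was 2.52% of genes called higher and 2.34% called lower. The median change of the 9 genes was -0.18, beside 0.04 for all genes measured. In 4 of the 9 genes (Kit, Dmrtb1, Meioc and Ythdc2) every KO testis lay below every WT testis, a pattern shown by 4.59% of all genes, and in none did every KO testis lie above, as it did in 6.87% of all genes. In KI testes none of the 9 genes passed.

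**Figure D1:**
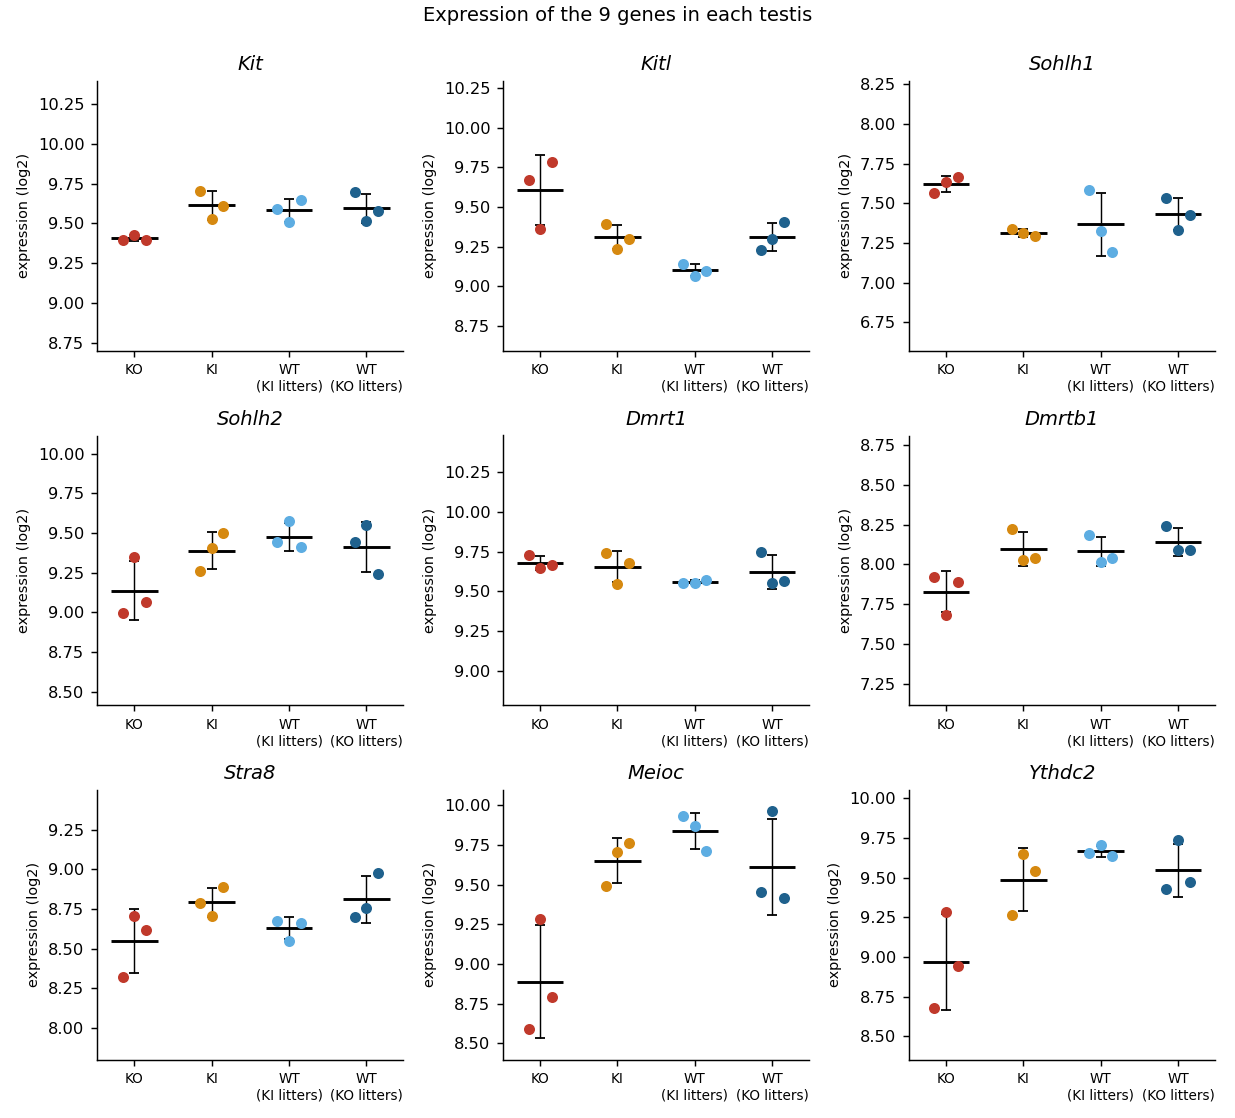
Log2 level (vertical axis) of each of the 9 genes in every testis, with the KO, KI, WT of KI litters and WT of KO litters groups from left to right, points as single arrays, thick bars as group means and thin bars as 1 SD either side (n = 3 each). Kit, Dmrtb1, Meioc and Ythdc2 have all 3 KO points under all 6 WT points, and Kitl has 2 of 3 KO points above every other testis.

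Kitl (transcript cluster 17236900) encodes the KIT ligand, which Sertoli cells present to spermatogonia. It measured 9.67, 9.36 and 9.78 in KO testes, 9.39, 9.24 and 9.30 in KI testes, 9.14, 9.07 and 9.10 in WT testes of KI litters, and 9.23, 9.30 and 9.40 in WT testes of KO litters. KO 1 and KO 3 were the highest of the 12 arrays, while KO 2 lay below WT 6, so the KO and WT ranges overlapped. Kitl averaged 9.61 ± 0.22 in KO (SD, n = 3) and 9.21 ± 0.13 in WT (SD, n = 6), a log2 change of 0.40 (SE 0.10, 95% interval 0.18 to 0.62, limma adjusted p = 0.0428), or 1.32-fold higher. Against the WT testes of their own litters alone the change was 0.30 and did not pass (adjusted p = 0.226). Against those of KI litters alone it was 0.50 and passed (adjusted p = 0.0286). The call against all 6 WT testes held in 3 of the 12 fits that each left out 1 array. It was lost without WT 1 (adjusted p = 0.0850), WT 2 (0.0839), WT 3 (0.0815), WT 5 (0.0708), KO 1 (0.153), KO 3 (0.192), KI 1 (0.0544), KI 2 (0.0572) or KI 3 (0.0609).

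Sertoli cell markers were read beside Kitl. Of 13, 2 rose and the other 11 did not pass, and the median change was 0.28. The log2 of the summed level of the 13 markers was 14.09 to 14.14 in KO, 13.98 to 14.12 in KI and 13.96 to 14.06 in WT, so the KO sums lay above all WT sums. Inhbb, the inhibin beta B subunit, averaged 8.31 in KO and 7.93 in WT (change 0.38, adjusted p = 0.0358). Fshr, the receptor for follicle-stimulating hormone, averaged 9.40 in KO and 9.04 in WT (change 0.36, adjusted p = 0.0416). No Sertoli marker passed within the KO litters, and both calls were lost without WT 1, WT 2, WT 3, WT 5, KO 1, KO 3 or KI 3, and that of Fshr also without KI 1 or KI 2 (adjusted p up to 0.156 for Inhbb and 0.179 for Fshr). As deviations from the WT mean, Kitl minus the mean of the Sertoli list was 0.04 to 0.28 in the KO testes and 0.02 to 0.05 in the KI testes, against -0.09 to 0.14 in the WT testes. The KO range reached above the WT range and overlapped it, and the part of the Sertoli markers in the Kitl result was not tested.

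Kit (transcript cluster 17438272), the receptor, measured 9.40, 9.43 and 9.40 in KO testes and 9.71, 9.53 and 9.61 in KI testes. The WT testes of KI litters had 9.59, 9.51 and 9.65, and those of KO litters had 9.70, 9.52 and 9.58. The 3 KO testes were the lowest of the 12 and lay close together, while KI and WT overlapped. The mean was 9.41 ± 0.02 in KO (SD, n = 3) and 9.59 ± 0.07 in WT (SD, n = 6), a change of -0.18 (SE 0.07) that did not pass over all genes (limma adjusted p = 0.113).

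KIT is also carried by Leydig cells and mast cells. The Leydig markers gave 1 of 7 measured genes that rose, Hsd3b1, a steroidogenic enzyme, at 8.32 in KO and 7.68 in WT (change 0.63, adjusted p = 0.0388). It did not pass within the KO litters (adjusted p = 0.204), and its call held only without WT 4, WT 6 or KO 2 among the 12 fits that left out 1 array (adjusted p up to 0.152). Over the 7 Leydig markers the median change was 0.60, with 6 above 0 and 1 below. Their summed log2 level was 11.87 to 12.12 in KO, 10.93 to 11.74 in KI and 10.97 to 11.79 in WT. The KO testes, lowest in Kit, thus had the highest Leydig sums. The part of the Leydig markers in the Kit values was not tested. Of 6 mast cell markers none passed, and 4 in KO and 5 in WT lay below the background limit. Downstream of the receptor, 25 of 30 listed mediators of KIT signalling were measured, of which 3 rose, 1 fell and 21 did not pass (median 0.09). Pik3r1, the regulatory subunit of PI3-kinase that KIT recruits, rose by 0.39 (adjusted p = 0.0311), the Src-family kinase Fyn by 0.25 (0.0406) and the catalytic subunit Pik3cd by 0.43 (0.0487). Mtor, the growth-control kinase downstream of PI3-kinase and AKT, fell by 0.35 on the log2 scale (adjusted p = 0.0402). Most of these mediators are broadly used outside germ cells.

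The region upstream of Kit is shown beside those of Sohlh1 and Sohlh2 because SOHLH1 and SOHLH2 are E-box-binding factors known to act on Kit. Each line holds the 250 bases before the annotated transcription start (RefSeq, GRCm38.p6), 5′ to 3′ on the gene's strand, with CANNTG (the E-box) and CNCCTCAG (a motif described for STRA8-bound promoters) in capitals on either strand. Kit lies at chr5:75574737-75574986 on the plus strand, Sohlh1 at chr2:25847249-25847498 on the minus strand, and Sohlh2 at chr3:55181794-55182043 on the plus strand.
Kit: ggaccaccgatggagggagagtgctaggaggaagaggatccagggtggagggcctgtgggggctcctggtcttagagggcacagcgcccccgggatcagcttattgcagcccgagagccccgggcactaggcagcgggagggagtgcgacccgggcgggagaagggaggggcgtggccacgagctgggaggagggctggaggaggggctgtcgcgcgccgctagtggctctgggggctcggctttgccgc
Sohlh1: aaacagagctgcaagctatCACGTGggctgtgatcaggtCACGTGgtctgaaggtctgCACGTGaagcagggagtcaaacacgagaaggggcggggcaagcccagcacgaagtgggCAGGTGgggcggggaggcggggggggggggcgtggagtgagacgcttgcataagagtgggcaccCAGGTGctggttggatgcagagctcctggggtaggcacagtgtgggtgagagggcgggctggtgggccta
Sohlh2: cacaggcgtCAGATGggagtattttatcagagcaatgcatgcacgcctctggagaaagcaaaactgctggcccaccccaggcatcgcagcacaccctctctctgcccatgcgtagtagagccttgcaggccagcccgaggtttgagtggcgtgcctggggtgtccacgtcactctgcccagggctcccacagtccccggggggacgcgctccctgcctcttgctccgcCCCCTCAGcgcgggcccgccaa
The Kit window had a GC content of 70.8% and held neither of the capitalised motifs. The Sohlh1 window held 5 E-boxes, starting 231, 211, 192, 134 and 70 bases upstream, of which the first 3 are the palindrome CACGTG. The half-site of retinoic acid receptors (AGGTCA) at 215 bases overlapped the E-box at 211. The Sohlh2 window held 1 E-box at 241 bases and 1 CNCCTCAG at 22 bases. Among 32851 promoter windows of this length, 66.2% held an E-box and 6.02% its palindromic form. The STRA8-related motif was in 6.42% of them and the receptor half-site in 14%. The SOX-type letters ACAATG (10.7% of windows) and ACAAAG (16.5%) were in none of the 3 windows.

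The table held 7 of the 9 genes. The Kitl, Stra8, Meioc and Dmrtb1 windows lie partly or wholly inside the annotated extent of the gene, upstream of the start of a shorter transcript only, and are not shown. Of these, Stra8 held ACAATG at 145 bases and AGGTCA at 194 and 38 bases, both Dmrtb1 windows held E-boxes (3 and 2), and Kitl and Meioc held none of the letters searched. A match describes letters only, and a window without one says nothing about binding elsewhere.

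Sohlh1 measured 7.56, 7.63 and 7.66 in KO testes and 7.34, 7.31 and 7.29 in KI testes. WT testes of KI litters had 7.58, 7.32 and 7.19, and WT testes of KO litters had 7.54, 7.33 and 7.43. All 3 KO values exceeded 5 of the 6 WT values, and only WT 1 reached into the KO range. Sohlh1 averaged 7.62 ± 0.05 in KO (SD, n = 3) and 7.40 ± 0.15 in WT (SD, n = 6), a change of 0.22 (SE 0.08, limma adjusted p = 0.131). Its partner Sohlh2 had the opposite sign, at 8.999, 9.35 and 9.07 in KO testes and 9.26, 9.41 and 9.50 in KI testes, against 9.24 to 9.58 in the 6 WT testes. KO 1 and KO 3 lay under every WT testis and KO 2 within their range. The change of Sohlh2 was -0.31 (SE 0.10, adjusted p = 0.0784), so neither partner passed. Over 22 other settings Sohlh2 passed under 4 (adjusted p 0.0235 to 0.279 over all 22), and Sohlh1 under none (0.0575 to 0.375).

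Dmrt1, which holds spermatogonia in the mitotic programme and restrains Stra8, varied least of the 9 genes, with an SD of 0.0807 over the 12 arrays. It measured 9.73, 9.64 and 9.66 in KO testes and 9.74, 9.55 and 9.67 in KI testes, against 9.55 to 9.75 in the 6 WT testes. The groups overlapped throughout, and the KO change of 0.09 (95% interval -0.06 to 0.24, adjusted p = 0.469) was within the spread. Dmrtb1, needed for spermatogonia to complete differentiation before meiosis, measured 7.92, 7.68 and 7.89 in KO testes and 8.22, 8.03 and 8.04 in KI testes. WT testes of KI litters had 8.19, 8.02 and 8.04, and WT testes of KO litters had 8.25, 8.09 and 8.09. Every KO value lay below every other value, yet the change of -0.28 (SE 0.08) did not pass (adjusted p = 0.0576). It passed under 4 of 22 other settings. These were only genes above the median level tested (adjusted p = 0.0199), an intensity trend (0.0289), median centring (0.0442) and quantile normalisation (0.0492). It passed in none of the 12 fits that left out 1 array (0.0619 to 0.158), nor against WT of KO litters alone (0.183).

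Other genes known from the same stages were read from lists. Of 24 genes of undifferentiated spermatogonia, 5 rose and 2 fell while 17 did not pass (median 0.10). Gfra1 and Ret, the co-receptor and receptor for GDNF that sustain stem cells, rose by 0.70 (adjusted p = 0.00207) and 0.71 (0.0161) on the log2 scale. With the mean of its clusters in place of the brightest one, Gfra1 had a change of 0.25 and did not pass (adjusted p = 0.177), and Ret did not pass without KO 1 or KO 3 (adjusted p up to 0.110). Neurog3, a marker of committed progenitors, fell by 1.29 (adjusted p = 0.00181). It measured 5.39, 5.09 and 5.53 in the KO testes, close to the background limit of 5.33, with KO 2 below it. The other gene that fell was Sox3, the one targeted in KO, and both the count and the mean of this list include it. Of 16 genes of differentiating spermatogonia other than the 9, 1 rose and 5 fell while 10 did not pass (median -0.14). The genes that fell included Prss50, a testis serine protease (-0.78, adjusted p = 0.0234), Tex101, a germ cell surface protein (-1.10, 0.0310), and Dmrtc2, a DM-domain factor of spermatocytes (-1.12, 0.0353). Dnmt3a, a DNA methyltransferase, rose by 0.31 (adjusted p = 0.0352). Ccnd2 (0.28), Sall4 (0.22), Rara (0.20) and Uchl1 (0.15) also had values above 0 but did not pass. The remaining 11 of the 16 had values below 0. Ddx4 and Tex101 of this list are expressed well beyond spermatogonia and also stand in the pan-germ cell list. With Dmrtc2, a factor of spermatocytes, among them, the falls in this list cannot be assigned to spermatogonia.

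The deviation of Kit from its WT mean, minus that of the undifferentiated list, was -0.27 to -0.19 in the KO testes and -0.05 to -0.01 in the KI testes, against -0.07 to 0.04 in the WT testes. The KO values stood apart from the others, which overlapped.

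**Figure D2:**
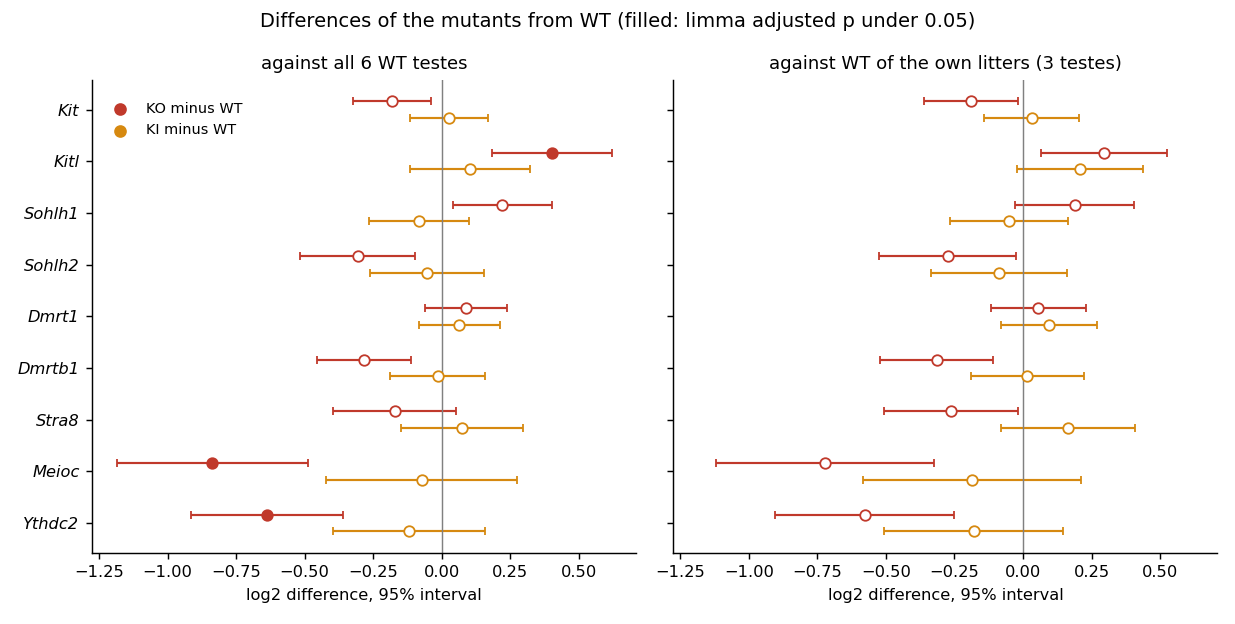
Log2 change with its 95% interval (horizontal axis) for each of the 9 genes, against all 6 WT testes in the left panel and against the 3 WT testes of the same litters in the right, with KO above KI for each gene and filled points past the test. The KO intervals of Kit, Sohlh2, Dmrtb1, Meioc and Ythdc2 lie wholly below 0 in both panels, and that of Kitl wholly above 0. Every KI interval against the 6 WT testes spans 0.

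Stra8, the retinoic acid target at the start of meiosis, measured 8.32, 8.71 and 8.62 in KO testes and 8.79, 8.70 and 8.89 in KI testes. WT testes of KI litters had 8.68, 8.55 and 8.66, and WT testes of KO litters had 8.70, 8.75 and 8.98. KO 1 was the lowest of the 12 arrays, and the other KO testes lay within the WT range. The mean was 8.55 ± 0.20 in KO (SD, n = 3) and 8.72 ± 0.14 in WT (SD, n = 6), and the change of -0.17 (95% interval -0.40 to 0.05) did not pass (limma adjusted p = 0.337). Without KO 1 the change was -0.06 (adjusted p = 0.797). Of 20 listed genes that make, break down or carry retinoids or receive retinoic acid, 19 were measured, of which 1 rose, 2 fell and 16 did not pass (median -0.05). Cyp26b1, which degrades retinoic acid, rose by 0.39 (adjusted p = 0.0326), and the retinol dehydrogenase Rdh11 fell by 0.76 (adjusted p = 0.0439), as did the retinol carrier Rbp4, by 0.28 (adjusted p = 0.0395).

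Meioc (transcript cluster 17256979) showed the largest change of the 9 genes and the largest spread, with an SD of 0.435 over the 12 arrays. It measured 8.59, 9.29 and 8.79 in KO testes and 9.49, 9.71 and 9.76 in KI testes. WT testes of KI litters had 9.93, 9.87 and 9.71, and WT testes of KO litters had 9.46, 9.96 and 9.42. Every KO testis lay below every WT testis, with KO 2 closest to them, while the KI testes lay among the WT testes. Meioc averaged 8.89 ± 0.36 in KO (SD, n = 3) and 9.73 ± 0.24 in WT (SD, n = 6), a log2 change of -0.84 (SE 0.16, 95% interval -1.18 to -0.49, limma adjusted p = 0.0310), or 1.79-fold lower.

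Ythdc2, the RNA helicase partner of MEIOC, followed it. It measured 8.68, 9.28 and 8.94 in KO testes and 9.26, 9.65 and 9.54 in KI testes. WT testes of KI litters had 9.66, 9.70 and 9.64, and WT testes of KO litters had 9.43, 9.74 and 9.47. Again every KO testis lay below every WT testis. KI 1 lay below KO 2 and below every WT testis, and the other KI testes lay among the WT testes. Ythdc2 averaged 8.97 ± 0.30 in KO (SD, n = 3) and 9.60 ± 0.13 in WT (SD, n = 6), a log2 change of -0.64 (SE 0.13, 95% interval -0.91 to -0.36, limma adjusted p = 0.0311), or 1.56-fold lower.

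Against the WT testes of KO litters alone the changes were -0.72 for Meioc (adjusted p = 0.155) and -0.58 for Ythdc2 (0.159), and neither passed. Against those of KI litters alone they were -0.95 (adjusted p = 0.0268) and -0.70 (0.0297), and both passed. The calls against all 6 WT testes held in 6 of the 12 fits that left out 1 array. They were lost without WT 1 (adjusted p = 0.0634), WT 2 (0.0656), WT 3 (0.0594), WT 5 (0.0615) or KO 3 (0.148). They were also lost without KO 1 (0.123 for Meioc and 0.128 for Ythdc2).

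The list of meiotic entry partners and STRA8 targets, which holds genes of cohesin, synapsis and recombination, had 31 of 33 genes measured. Of these 23 fell and 8 did not pass (median -0.62). None of the 31 passed without WT 3, KO 1 or KO 3 or within the KO litters, 2 passed without WT 1, WT 2 or WT 5, and 20 to 26 passed without any one of the other 6 arrays. Majin, which tethers telomeres to the nuclear envelope, averaged 6.41 in KO, 7.48 in KI and 7.63 in WT (KO change -1.22, adjusted p = 0.0204). Syce3, of the synaptonemal complex, averaged 7.81 in KO, 8.51 in KI and 8.69 in WT (KO change -0.88, adjusted p = 0.0204). Hfm1, a crossover helicase, averaged 7.29 in KO and 8.41 in WT (change -1.12, adjusted p = 0.0267), and Spata22, which acts in meiotic recombination, 7.12 in KO and 8.37 in WT (change -1.25, adjusted p = 0.0295). Rbm46, an RNA-binding protein known to act with the MEIOC and YTHDC2 pair, fell by 0.51 (adjusted p = 0.0373), and the exonuclease Xrn1, which binds YTHDC2, had a difference of 0.14 and did not pass (adjusted p = 0.284).

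MEIOC and YTHDC2 are known for clearing mitotic transcripts, so mitotic cell cycle genes were listed as well. Of 18, 16 were measured, and 7 fell, none rose and 9 did not pass (median -0.28). The topoisomerase Top2a fell by 0.48 (adjusted p = 0.0264), the checkpoint kinase Bub1 by 0.58 (0.0295), the spindle motor Kif11 by 0.28 (0.0317) and the replication factor Mcm3 by 0.27 (0.0320). Without any one of WT 1, WT 2, WT 3, WT 5, KO 1 or KO 3, no gene of the mitotic, KIT signalling or retinoic acid lists passed and at most 1 of the differentiating list did, while the undifferentiated list had 1 to 6 that rose and 1 to 3 that fell over all 12 such fits. Without any one KI array, 1 gene of the KIT signalling list rose and none fell, and none of the retinoic acid list fell. Within the KO litters no gene of the mitotic, KIT signalling, retinoic acid or differentiating lists passed. Of the undifferentiated list, Neurog3 fell and Gfra1 rose there, the only 2 genes called among all genes.

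**Figure D3:**
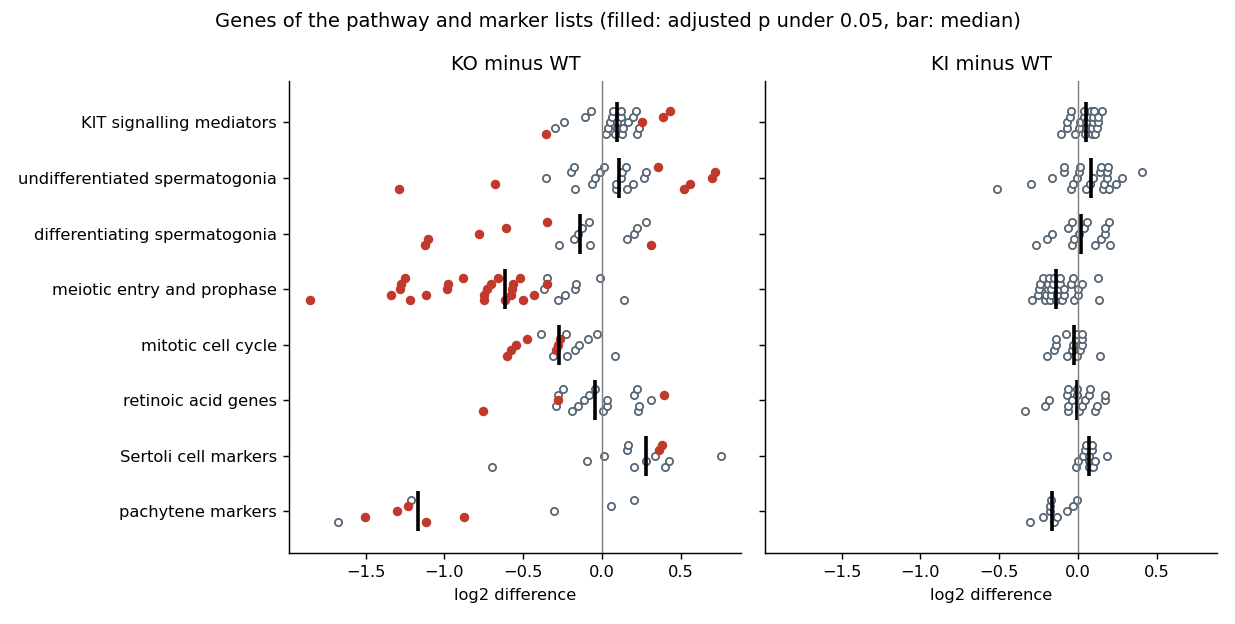
Log2 difference (horizontal axis) of every measured gene of the 6 pathway lists and of the Sertoli and pachytene markers, for KO minus WT in the left panel and KI minus WT in the right, with filled points past the test and bars as medians. In KO the meiotic list lies almost wholly below 0, with a median of -0.62, and in KI its median is -0.14 with no filled point.

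Markers of all germ cells and of pachytene spermatocytes were read beside the pair. Of 7 pan-germ cell markers 4 fell, none rose and 3 did not pass (median -0.60), with a summed log2 level of 12.82 to 13.25 in KO, 13.33 to 13.56 in KI and 13.26 to 13.79 in WT. Dazl, a germ cell RNA-binding protein, fell by 0.39 (adjusted p = 0.0328) and the helicase Ddx4 by 0.61 (0.0424). Of 10 pachytene spermatocyte markers 5 fell, none rose and 5 did not pass, 2 of them with values above 0 (median -1.17). Their summed log2 level was 10.15 to 11.01 in KO, 11.11 to 11.63 in KI and 10.88 to 12.03 in WT. Ybx2, a germ cell Y-box protein, fell by 1.50 (adjusted p = 0.0320), and Brdt, a testis bromodomain protein, by 1.30 (0.0319). No gene of either list passed within the KO litters. The calls of Dazl, Ybx2 and Brdt were lost without WT 1, WT 2, WT 3, WT 5, KO 1 or KO 3 (adjusted p up to 0.151 for Dazl, 0.149 for Ybx2 and 0.153 for Brdt), and that of Ddx4 also without any one KI array (up to 0.166). The part of these markers in the falls of Meioc, Ythdc2, the meiotic list and the mitotic list was not tested. Nor was any link between the pair and the mitotic genes, which fell along with it.

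As deviations from the WT mean, Meioc minus the meiotic list was -0.19 to -0.12 in the KO testes and 0.04 to 0.06 in the KI testes, within the WT range of -0.18 to 0.19 but for the lowest KO value. Ythdc2 minus the list was -0.01 to 0.15 in the KO testes and -0.06 to 0.11 in the KI testes, against -0.05 to 0.04 in the WT testes. The KO and KI values of Meioc did not overlap, while those of Ythdc2 did.

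**Figure D4:**
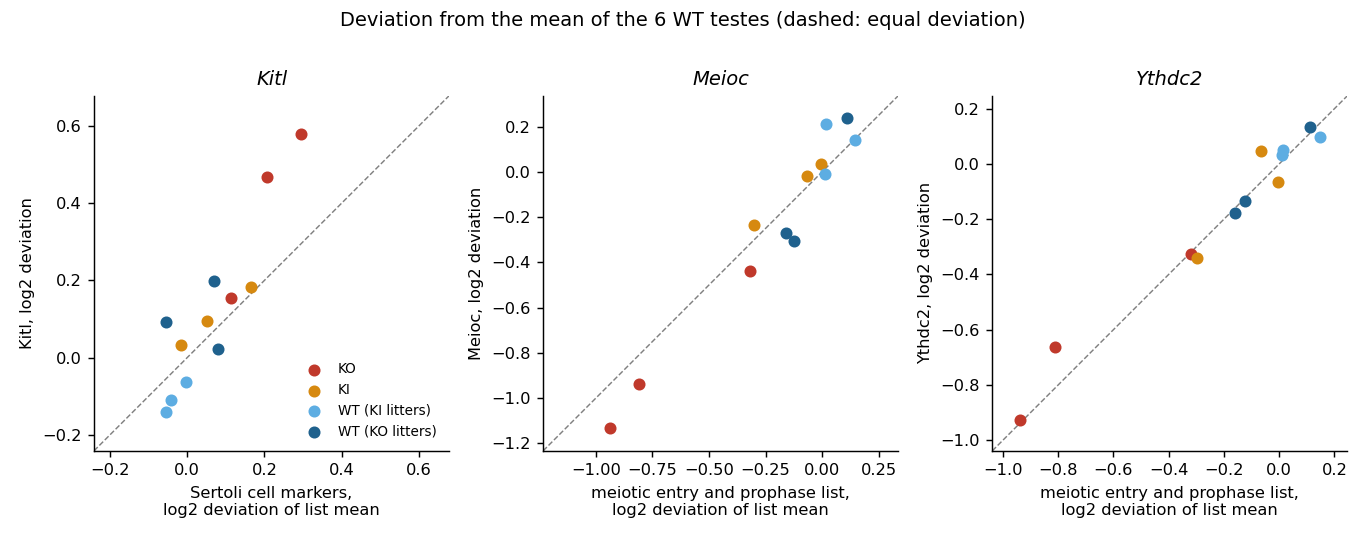
Deviation of a gene from its mean in the 6 WT testes (vertical axis, log2) against that of the mean of a list (horizontal axis, log2), 1 point per array, for Kitl with the Sertoli markers and for Meioc and Ythdc2 with the meiotic list; the dashed line marks equal deviation. The KO points of Meioc and Ythdc2 lie at the low end of both axes, close to the line, and KO 1 and KO 3 lie above the line for Kitl.

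The genes whose pattern over the 12 arrays was most like each of the 3 were found by the root mean square difference between deviations from each gene's own mean, over all 22180 genes. Nearest to Meioc were Psmc3ip, a meiotic recombination factor (difference 0.0637), Mybl1, the spermatocyte transcription factor A-MYB (0.0728), and Rad9b (0.0748). Those nearest to Ythdc2 were the meiotic cohesin subunit Stag3 (0.0549), Dop1a (0.0557) and Strbp, a spermatid RNA-binding protein (0.0576). Kitl was nearest to Tmem9 (0.0624), the laminin subunit Lamc3 (0.0635) and Agpat2 (0.0647). Among the 9 genes, the closest pair was Kit and Dmrtb1 (0.0890), Meioc and Ythdc2 differed by 0.134, and the farthest pair was Kitl and Meioc (0.607). The measure is not scaled by spread, so genes that vary little come out close. The SD over the 12 arrays was 0.108 for Kit and 0.157 for Dmrtb1, against 0.435 for Meioc and 0.327 for Ythdc2.

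**Figure D5:**
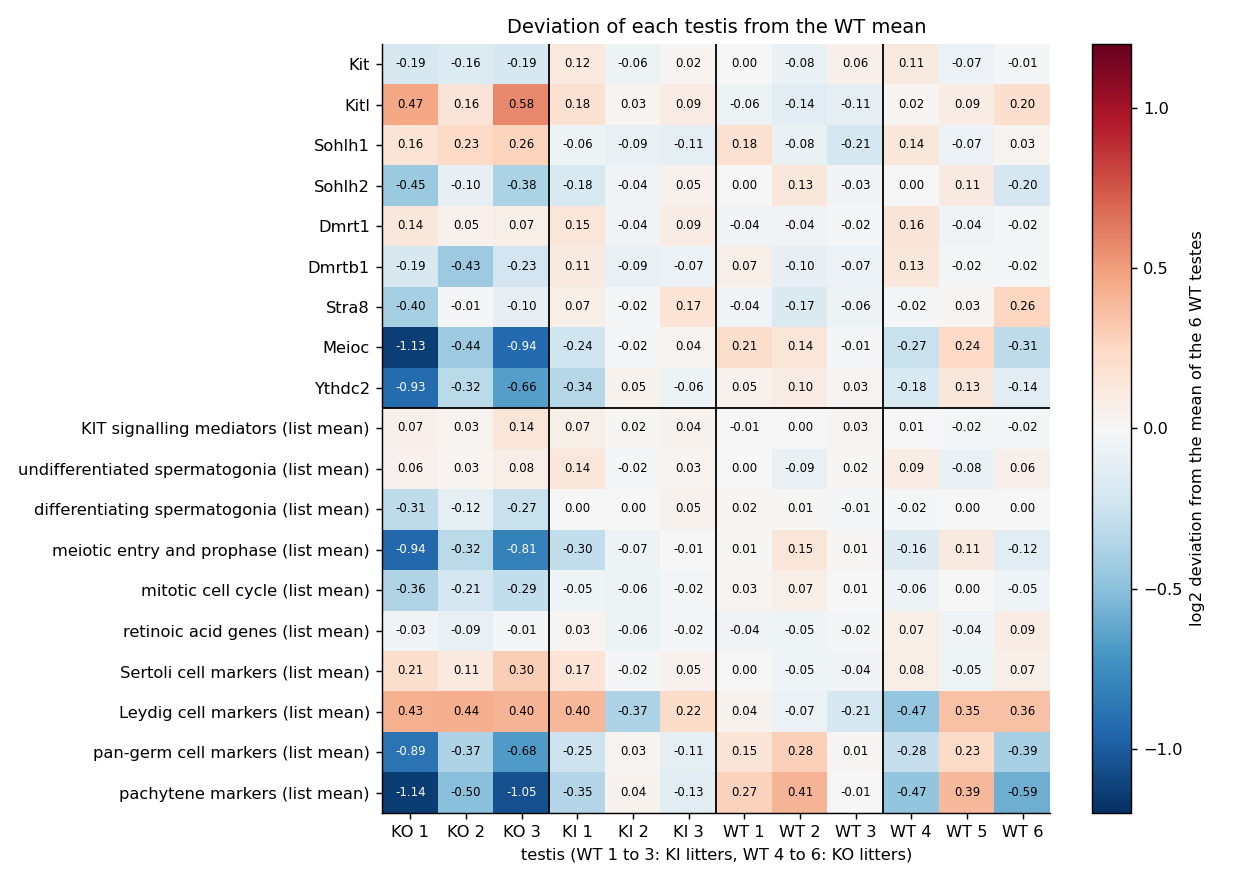
Deviation from the mean of the 6 WT testes (colour and printed value, log2) in every testis, with KO, KI and WT testes from left to right, for the 9 genes in the upper rows and the means of 6 pathway and 4 marker lists in the lower rows. KO 1 and KO 3 deviate most in Meioc, Ythdc2 and Kitl, and KO 2 less.

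In KI testes, compared with the same 6 WT testes, limma called none of the 9 genes, and none had an unadjusted p under 0.05. Over all genes it called 0%, with 5.24% at an unadjusted p under 0.05. The changes ran from -0.12 in Ythdc2 to 0.10 in Kitl, and the 95% intervals of the 9 genes lay between -0.42 and 0.32. Meioc averaged 9.65 ± 0.14 in KI (SD, n = 3) and 9.73 ± 0.24 in WT (SD, n = 6), a change of -0.07 (95% interval -0.42 to 0.28). Ythdc2 averaged 9.49 ± 0.20 in KI and 9.60 ± 0.13 in WT, with an interval of -0.40 to 0.16, and Kitl averaged 9.31 ± 0.08 in KI and 9.21 ± 0.13 in WT, with an interval of -0.12 to 0.32. For no gene did the KI range stand apart from the WT range, as it did for 3.1% of all genes. No gene of the 6 pathway lists passed either. The meiotic list had a median of -0.14 with 27 of 31 genes below 0, and the Sertoli list a median of 0.07. This comparison shares its WT testes with that of KO.

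Compared directly, KI minus KO, none of the 9 genes passed (smallest limma adjusted p 0.143), though 7 had an unadjusted p under 0.05. Over all genes 0% passed, with 18% at an unadjusted p under 0.05. Meioc was higher in KI than in KO by 0.76 (SE 0.19, 95% interval 0.36 to 1.17, adjusted p = 0.143) and Ythdc2 by 0.52 (0.20 to 0.84, adjusted p = 0.149). Kitl differed by -0.30 (adjusted p = 0.222), Sohlh1 by -0.31 (0.166), Sohlh2 by 0.25 (0.261), Dmrtb1 by 0.27 (0.186), Kit by 0.21 (0.198), Stra8 by 0.24 (0.300) and Dmrt1 by -0.02 (0.893). All KI testes lay above all KO testes in Kit, Dmrtb1 and Meioc and below them in Sohlh1, 4 of 9 genes, beside 22.1% of all genes (9.56% with KI above and 12.6% with KI below). Meioc and Ythdc2 each passed in 1 of the 12 fits that left out 1 array (adjusted p up to 0.343 and 0.352). That fit left out KO 2, the knockout nearest to WT in both genes, and gave 0.96 and 0.68. It called 721 of the 22180 genes, where the fit with all arrays called 0.

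Within litters the KO testes were compared with WT 4 to WT 6 and the KI testes with WT 1 to WT 3. None of the 9 genes passed in either comparison, 7 having an unadjusted p under 0.05 in KO and none in KI. Over all genes 0.00902% passed in KO, with 15.7% at an unadjusted p under 0.05, and 0% in KI, with 4.51% at an unadjusted p under 0.05. Every KO testis lay below every littermate in Kit (-0.19), Dmrtb1 (-0.31), Meioc (-0.72) and Ythdc2 (-0.58) and above them in Sohlh1 (0.19), beside 17.3% of all genes (7.13% with KO below and 10.2% with KO above). Every KI testis lay above its littermates in Kitl (0.21, adjusted p = 0.930) and Stra8 (0.16, 0.930), beside 14.4% of all genes. The difference of the effects, KI minus KO, passed for none of the 9 genes (smallest adjusted p 0.847) and had an unadjusted p under 0.05 for Dmrtb1 (0.33) and Stra8 (0.43), where 5.83% of all genes did. For Meioc it was 0.54 (95% interval -0.03 to 1.10) and for Ythdc2 0.40 (-0.06 to 0.86).

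The WT testes were also compared with each other by litter origin, and none of the 9 genes passed (0% of all genes). WT of KI litters minus WT of KO litters was -0.21 for Kitl (adjusted p = 0.891) and -0.18 for Stra8 (0.891), the pair of genes whose WT groups did not overlap, beside 11.7% of all genes. It was 0.23 for Meioc and 0.12 for Ythdc2, whose WT groups overlapped. None of the 9 genes had an unadjusted p under 0.05, as 5.29% of all genes did. Litter origin and mutant line cannot be told apart where KO and KI are set against each other.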

How the data were processed

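Whole-testis RNA of 12 mice was labelled with the Affymetrix WT PLUS kit and hybridised to 1 array each, per the labels' protocols. The deposited values are log2 levels of 41345 transcript clusters. Per the submitters' processing notes, the tools were Partek 6.6, Affymetrix Expression Console and RMA. Their filters and annotation release are not given in the sources consulted.

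Of the clusters, 23521 had 1 symbol in the platform annotation, 1814 several and 16010 none. A gene with several clusters (1082 genes) took the one of highest mean, giving 22180 genes. The 9 genes had 1 cluster each. limma 3.58.1 (lmFit, eBayes, two-sided) in R 4.3.3 fitted all 12 arrays as 3 genotypes, or as 4 groups for values within litters, with Benjamini-Hochberg adjustment over all genes at 0.05. The fit was tested on simulated data in which genes varied independently, which checks the code and not the calls made here. Promoters and figures used Python 3.11.15 with pandas 2.3.3, numpy 2.4.6 and matplotlib 3.10.9.

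The genes named are the 9, Sox3 and Sox2, up to 4 genes of smallest p past the test in each list, or else 2 of highest level, and the 3 genes most like each called gene. Xrn1 and Rbm46 were added after their values were seen. The 9 genes, the 6 pathway lists and the 10 marker lists were chosen with earlier results of these data known. Alternatives were median centring, quantile normalisation, a filter on dim genes, array weights, and an intensity trend with robust estimation. Others were the mean of a gene's clusters, only the arrays compared, and WT of the same litters or of the other litters. A replicate block and leaving out each array were also used. Replicate numbers are shared across groups, but correlations of same-numbered deviations ran from -0.03 to 0.16, so they were not taken as pairs.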

Additional observations from a re-analysis of the deposited data

Results flagged for a closer look

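Dmrt1 in the WT testes held 1 array far from the others. WT 4 measured 9.75 and the nearest of the other 5 WT testes 9.57, a gap of 0.89 of the whole WT range, above Dixon's 95% critical value for 6 samples. Of 11 genes examined this way (the 9 genes, Sox3 and Sox2), Dmrt1 was the only one, and chance gives about 1 in 20 groups. KO 1 and KI 1, at 9.73 and 9.74, were close to WT 4. Without WT 4 the KO change of Dmrt1 was 0.12 rather than 0.09, and it passed the test in neither fit.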

How the results depend on the processing

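The KO comparison with 6 WT testes called 1078 genes and 3 of the 9 genes. With only genes above the median level it called 2459 genes and 6 of the 9 (Kit, Sohlh2 and Dmrtb1 in addition). That filter tested fewer than the 22180 genes, so a larger share of all genes tested was called as well. An intensity trend with robust estimation called 2048 and 5 (Sohlh2 and Dmrtb1 in addition), the KO and WT arrays alone 30 and 0, and WT of the same litters 2 and 0. Leaving out 1 array gave 2 to 2323 genes and 0 to 4 of the 9. KI minus KO called 57 genes with the level filter, 5 with the trend and 0 to 721 without 1 array, and 0 to 2 of the 9. KO within litters called 32 genes with the filter, 1 with array weights, 41 with the trend, 1 with the mean of clusters and 0 to 605 without 1 array, and 0 to 3 of the 9. WT litters differed in 1 gene with the trend and 0 to 50 without 1 array. With the replicate block, KI minus KO called 247 genes. That block gives each of WT 4 to WT 6 its own term, so KO is set against WT of KI litters alone. The KO changes were -0.95 for Meioc, -0.70 for Ythdc2 and 0.50 for Kitl, all called. They equal the changes against WT of KI litters without the block, so they say nothing about WT of KO litters. Over the 1224 values of the 9 genes under alternatives, 27 lost their call, 14 gained one and 27 took the other sign with neither value past the test. No called value changed sign. The median change of all genes in KO was 0.04, and 0.02 after centring.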

Other observations

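The remaining cell type markers did not pass in KO testes against the 6 WT testes. The 6 peritubular cell markers had a median change of 0.18, the 6 endothelial markers 0.17, the 7 macrophage markers 0.11 and the 6 mast cell markers 0.19. Of the 6 measured spermatid markers 5 averaged below the background limit in each genotype (median change 0.10), and the 4 measured epididymis markers had a median change of 0.08. In KI testes no marker of any list passed against WT. The mast cell markers had a summed log2 level of 8.06 to 8.37 in KO, 8.04 to 8.16 in KI and 7.99 to 8.46 in WT.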
